A study of Mus musculus with 20 samples.

Results

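Toll-like receptors reach their ligands and their signalling chain through a small set of accessory proteins, and 10 mouse genes for such proteins were followed here: Ly86, Cd180, Ly96, Cd14, Unc93b1, Cnpy3, Myd88, Ticam1, Irak3 and Irak4. They were taken by symbol, with every probe set of each symbol, and 9 of the 10 were measured, out of 18193 named genes on the array. Irak3 had 2 probe sets and the other 8 genes had 1 each. Expression of Irak4 was not analysed here, and only its promoter window was searched.

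Messenger RNA was measured on 20 Affymetrix mouse arrays, 2 for each of 10 groups, all from bone marrow of C57BL/6 mice. Per the labels, conventional dendritic cells (cDC) and plasmacytoid dendritic cells (pDC) were differentiated in culture from amplified progenitors. Common dendritic cell progenitors isolated from bone marrow are called in vivo CDP, and those amplified in culture are called CDP. Multipotent progenitors (MPP) were also amplified in culture. A second experiment followed cultured CDP at 0 h (untreated) and after 4, 8, 12 and 24 h of TGF-β1, a cytokine that acts on dendritic cell development, at a dose that the labels do not state. No group carries a genetic change, and the labels give neither age and sex nor how many mice or cultures were used. The series' title states that TGF-β1 speeds the differentiation of CDP and favours cDC, which is the question the time course addresses.

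As background, Ly86 (MD-1) and Ly96 (MD-2) are small secreted proteins that sit on the outer domain of a leucine-rich receptor. MD-1 pairs with Cd180 (RP105), a receptor homologue without a signalling domain known best from B cells, and MD-2 pairs with the lipopolysaccharide receptor Tlr4, to which Cd14 hands over its ligand. Unc93b1 carries the nucleic acid receptors out of the endoplasmic reticulum to endosomes, and Cnpy3 helps the chaperone Hsp90b1 to fold many of the receptors. Myd88 is the adaptor of nearly all of them, Ticam1 (TRIF) is the adaptor of Tlr3 and of internalised Tlr4, and Irak3 (IRAK-M) is a kinase-dead relative of the IRAK kinases that restrains the Myd88 chain. Conventional dendritic cells are known for sensing a wide range of microbial ligands, and plasmacytoid dendritic cells for sensing nucleic acids through Tlr7 and Tlr9.

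RefSeq promoter windows of build GRCm38.p6 were found for 7 of the 10 genes. The 250 bases before the transcript start are shown for 4 of them: Ly86 and Cd180, which encode the partners of 1 receptor complex and were both lowest in MPP, Irak3, which separated cDC from pDC, and Ticam1, which separated cDC from CDP. They lie at chr13:37345095-37345344 (plus strand) for Ly86, chr13:102693297-102693546 (plus strand) for Cd180, chr10:120202131-120202380 (minus strand) for Irak3 and chr17:56276768-56277017 (minus strand) for Ticam1. Each is printed 5′ to 3′ on the strand of its gene, and capitals mark 2 motifs searched on both strands, GAGGAA (the core bound by PU.1) and GAAACT (a part of the element bound by IRF factors).
Ly86: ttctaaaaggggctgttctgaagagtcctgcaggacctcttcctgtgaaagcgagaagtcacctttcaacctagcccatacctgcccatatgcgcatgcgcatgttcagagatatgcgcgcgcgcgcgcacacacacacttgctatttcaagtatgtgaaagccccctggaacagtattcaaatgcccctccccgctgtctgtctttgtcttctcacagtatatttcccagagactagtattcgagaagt
Cd180: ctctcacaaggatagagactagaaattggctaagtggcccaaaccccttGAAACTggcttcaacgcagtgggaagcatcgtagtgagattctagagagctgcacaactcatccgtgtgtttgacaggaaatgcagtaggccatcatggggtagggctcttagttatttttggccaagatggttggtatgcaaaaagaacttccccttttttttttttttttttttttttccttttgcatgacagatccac
Irak3: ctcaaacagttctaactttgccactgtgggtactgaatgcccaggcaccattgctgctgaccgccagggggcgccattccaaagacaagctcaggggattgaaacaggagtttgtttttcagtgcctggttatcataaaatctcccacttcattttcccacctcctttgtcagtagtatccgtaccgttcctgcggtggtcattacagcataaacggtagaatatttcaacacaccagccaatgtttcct
Ticam1: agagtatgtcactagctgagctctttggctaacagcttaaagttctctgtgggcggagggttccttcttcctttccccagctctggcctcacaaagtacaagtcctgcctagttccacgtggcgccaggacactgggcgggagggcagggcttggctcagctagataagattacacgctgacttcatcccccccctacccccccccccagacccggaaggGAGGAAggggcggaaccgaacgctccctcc
The window of Cd180 held GAAACT once and that of Ticam1 held GAGGAA once, at position -30 from the transcript start, while neither motif was in the windows of Ly86, Irak3, Myd88 and Irak4. The window of Cnpy3, which lies inside the gene's span in the same annotation and is not printed, held GAGGAA once. Of 27025 windows of the same length, 23.1% held GAGGAA and 13.7% held GAAACT, and a match is a description, not a binding site.

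All values are log2 probe set intensities as deposited. The 10 arrays of the first experiment share a floor of 2.25 and have medians between 2.46 and 2.51, whereas the TGF-β1 arrays have no such floor and medians between 5.29 and 5.36, so no level was compared across the 2 experiments. A value of 5 was used as a line for dim signal. The 2 dendritic cell types carried their markers: all 10 cDC markers were above 5 on both cDC arrays and all 8 pDC markers on both pDC arrays. Of the pDC markers, 7 of 8 were also above 5 on both cDC arrays, among them Siglech (mean 7.28 in cDC, 13.17 in pDC and 3.29 in CDP), and 7 of 8 were higher in cDC than in CDP. Of the cDC markers, 5 of 10 were above 5 on both pDC arrays, and 5 of 10 were higher in pDC than in CDP. The part of cells of the other type in the members' differences was not tested. The 4 progenitor markers did not set the progenitors apart. All 4 were above 5 on both arrays in MPP, in vivo CDP and cDC, and 3 were in CDP and in pDC. Against CDP, cDC were higher for 2 of the 4 and lower for 1. Kit averaged 9.71 in MPP, 5.03 in CDP and 11.10 in cDC. Some arrays stood apart. Replicate 1 at 4, 12 and 24 h of TGF-β1 had a Gapdh signal 2.09 to 2.78 higher at the 3′ than at the 5′ end of the transcript, against 0.01 to 0.10 on the other 7 arrays of that series. The 2 pDC arrays differed in macrophage markers, with Lyz2 at 7.13 and 11.94 and Adgre1 at 4.32 and 8.86 on replicates 1 and 2. The labels do not say whether replicate arrays stand for separate cultures or mice; p-values therefore measure the spread between these arrays only, which may be technical.

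Between the cultured cells and against bone marrow CDP, members moved in both directions. Differences were tested with limma over all probe sets, and a gene is said to have risen or fallen where its Benjamini-Hochberg adjusted p, over all probe sets tested, was below 0.05. In CDP against MPP, 3 of the 9 members passed, where 4.92% of all probe sets tested passed; 2 were higher (2.81% of all probe sets) and 1 lower (2.11%). In cDC against CDP it was 6 of 9 (40.2% of all probe sets), with 5 higher (16.6%) and 1 lower (23.7%). In pDC against CDP it was also 6 of 9 (48.2%), with 4 higher (21.9%) and 2 lower (26.4%). In cDC against pDC, 3 of 9 passed (20.8%), with 1 higher (9.79%) and 2 lower (11%). For bone marrow against cultured CDP it was 7 of 9 (42.8%), with 4 higher (23.1%) and 3 lower (19.7%). These shares of all probe sets are high, so counts of 6 or 7 among 9 genes say little by themselves. Without the filter on dim probe sets, 1 of 9 passed in CDP against MPP and 1 of 9 in cDC against pDC. Of all probe sets, 0.988% and 5.24% then passed. Without it, Cd180 and Cd14 also lost their calls in cDC against CDP (adjusted p 0.0878 and 0.125). So did Myd88 and Irak3 in in vivo CDP against CDP (adjusted p 0.108 and 0.128). The median difference of the members was 0.80 in CDP minus MPP, 0.90 in cDC minus CDP, 0.63 in pDC minus CDP, -0.02 in cDC minus pDC and 0.18 in in vivo CDP minus CDP, beside -0.10 to 0.03 over all probe sets. All 5 comparisons share the CDP or the dendritic cell arrays and are not independent of each other.

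**Figure D1:**
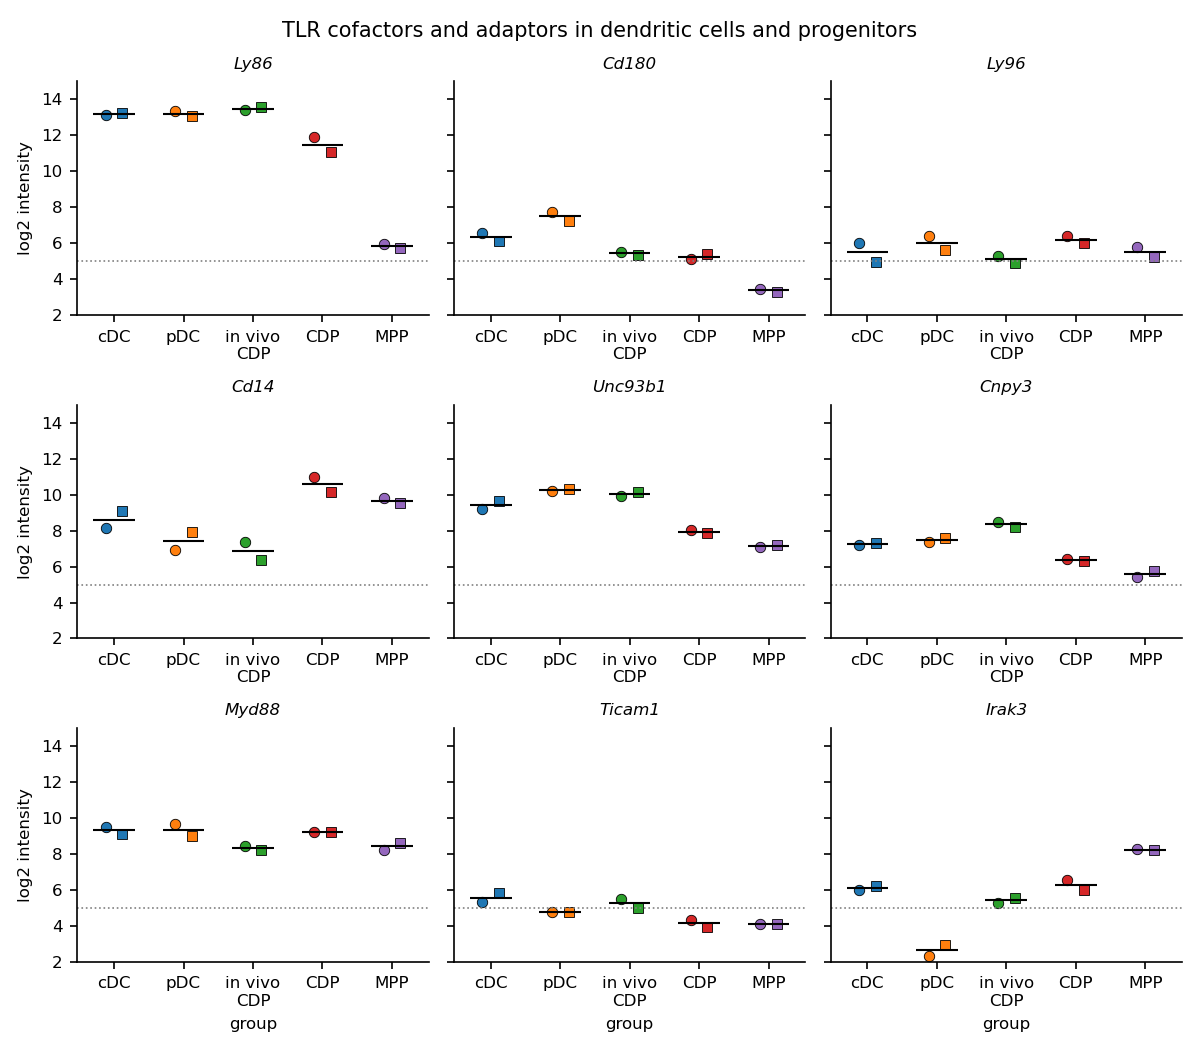
Log2 intensity of the 9 measured genes (vertical axis) in cDC, pDC, in vivo CDP, CDP and MPP (horizontal axis). Circles are replicate 1, squares replicate 2, bars the mean of 2 arrays, and the dotted line is the value of 5 used for dim signal. Ly86 separates MPP (5.76 and 5.97) from every other group, Irak3 is lowest in pDC (2.34 and 2.92), and Cd14 is highest in CDP (10.15 and 10.99).

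Ly86, which encodes MD-1, had the largest difference of the 9 members between CDP and MPP. Ly86 was 11.90 and 11.08 in CDP, against 5.97 and 5.76 in MPP. The difference of 5.63 (SE 0.29) is a 49.5-fold higher signal in CDP, with an adjusted p of 0.000281, and it passed whichever of the 4 arrays was left out. In bulk samples such as these, fewer cells of a type and less RNA per cell cannot be told apart. Ly86 was higher still in the differentiated cells, at 13.14 and 13.27 in cDC and 13.36 and 13.07 in pDC. It rose over CDP in both types, by 1.71 (SE 0.29, 3.28-fold, adjusted p = 0.00525) in cDC and by 1.73 (SE 0.29, 3.31-fold, adjusted p = 0.0037) in pDC. Between the 2 dendritic cell types the arrays overlapped, and the difference of -0.01 had a 95% interval of -0.72 to 0.69. In vivo CDP had 13.43 and 13.56, above both CDP arrays by 2.00 on average (SE 0.28, 4.01-fold, adjusted p = 0.00114). From high to low the order of the means was in vivo CDP, pDC, cDC, CDP and MPP.

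Cd180, the receptor that MD-1 supports at the cell surface, followed Ly86 from MPP to CDP but then separated the dendritic cell types. It was 5.11 and 5.39 in CDP, against 3.47 and 3.30 in MPP, where both arrays were under 5. The difference was 1.87 (SE 0.26, adjusted p = 0.0112), and against the line of 5 the fold is at least 1.19. With all values under 5 raised to 5 it was 0.25 (adjusted p = 0.717). That call is fragile, since the adjusted p was between 0.0625 and 0.0879 without CDP replicate 2 or without either MPP array. cDC had 6.58 and 6.10, higher than CDP by 1.09 (SE 0.26, 2.13-fold, adjusted p = 0.0175), a call lost without replicate 1 of cDC or of CDP (adjusted p 0.0851 and 0.076). pDC had 7.76 and 7.25, higher than CDP by 2.26 (SE 0.26, 4.77-fold, adjusted p = 0.000853). No cDC array reached the lower pDC array, and the difference of cDC from pDC was -1.16 (SE 0.26, 2.24-fold lower in cDC, adjusted p = 0.0228). It did not pass without cDC replicate 2 or pDC replicate 1 (adjusted p 0.11 and 0.119). In vivo CDP, at 5.54 and 5.33, overlapped CDP (difference 0.18, 95% interval -0.40 to 0.76), whereas Ly86 was higher there.

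Cd180 and Ly86 are also B cell genes, and B cell markers were mostly at the floor. Of 7 measured, Cd79a, Pax5 and Ebf1 had a mean of 2.25 in all 5 groups, and Cd79b had means of 8.66 in cDC, 7.85 in pDC, 8.75 in in vivo CDP, 8.66 in CDP and 7.44 in MPP. Blk, a kinase found in B cells and in pDC, was above 5 in pDC alone (5.21 and 6.69), and Ms4a1 was above 5 on 1 cDC array (6.92). The summed B cell marker level ran from 7.88 to 8.75 in pDC and from 8.55 to 8.97 in CDP. The part of B cells in the Cd180 and Ly86 values was not tested.

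Cd14, the ligand-loading coreceptor for lipopolysaccharide, ran against the MD-1 and RP105 pair in cDC and pDC compared with CDP, but not in CDP compared with MPP. It was highest in the cultured progenitors, at 10.99 and 10.15 in CDP, against 9.81 and 9.51 in MPP; these 2 groups did not differ past the threshold (difference 0.91, SE 0.47, adjusted p = 0.4). cDC had 8.15 and 9.07, lower than CDP by 1.96 on average (difference -1.96, SE 0.47, 3.89-fold, adjusted p = 0.0169). That call was lost without replicate 1 of CDP or of cDC (adjusted p 0.0814 and 0.0872). pDC had 6.94 and 7.91, a difference from CDP of -3.14 (SE 0.47, 8.84-fold lower, adjusted p = 0.00213). The pDC arrays lay below both cDC arrays, but the difference of cDC from pDC, 1.18 (SE 0.47), had an adjusted p of 0.132. The lowest pair was in vivo CDP, at 7.38 and 6.35, with a difference from CDP of -3.70 (SE 0.50, 13-fold lower, adjusted p = 0.00107).

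Some markers of monocytes and macrophages, which also carry Cd14, moved with it between replicates, and others moved against it. The pDC array with more Cd14 was also the one with more Lyz2 and Adgre1, and the CDP array with more Cd14 had more Lyz2 as well (13.13 on replicate 1 and 10.48 on replicate 2). On the cDC arrays Fcgr1 went the other way, at 9.50 and 5.71, with Cd14 at 8.15 and 9.07. So did Cd68 (8.37 and 9.04) and Cx3cr1 (10.26 and 10.96) on the in vivo CDP arrays, with Cd14 at 7.38 and 6.35. Over the whole list of 10 measured markers, 8 were above 5 on both arrays in cDC, 6 in pDC, 5 in in vivo CDP, 7 in CDP and 6 in MPP. The summed level ran from 14.30 to 14.88 in cDC, 13.84 to 14.47 in pDC, 13.47 to 13.80 in in vivo CDP, 13.82 to 14.57 in CDP and 13.16 to 13.39 in MPP. Its part in the Cd14 differences was not tested.

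Ly96, which encodes MD-2, stayed within a narrow band. Its values were 6.04 and 4.97 in cDC, 6.40 and 5.65 in pDC, 5.31 and 4.93 in in vivo CDP, 6.39 and 6.02 in CDP, and 5.81 and 5.23 in MPP. No comparison passed in the fits used throughout; the differences were -0.70 in cDC minus CDP, -0.18 in pDC minus CDP, 0.69 in CDP minus MPP and -0.52 in cDC minus pDC, each with an SE of 0.44. In in vivo CDP minus CDP it was -1.09 (SE 0.41, adjusted p = 0.066), which became a call when only the 4 arrays compared were fitted (adjusted p = 0.0376). The receptor that MD-2 serves did not stay level: Tlr4 averaged 3.22 in pDC and 6.59 in CDP (difference -3.36, SE 0.26, at least 3-fold lower in pDC, adjusted p = 0.000204). It averaged 6.36 in cDC (difference from CDP -0.23, adjusted p = 0.517; named here after its values were seen). In pDC, Cd14 and Tlr4 were thus lower than in CDP while the difference of Ly96 did not pass.

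Unc93b1 and Cnpy3, the transport and folding factors, were higher in each of cDC, pDC and in vivo CDP than in CDP. Unc93b1 was 9.18 and 9.67 in cDC, while pDC had 10.20 and 10.30 and in vivo CDP had 9.93 and 10.17. CDP had 8.02 and 7.85, and MPP had 7.06 and 7.18. None of the cDC, pDC or in vivo CDP arrays overlapped a CDP array. The rise over CDP was 1.49 (SE 0.22, 2.81-fold, adjusted p = 0.00287) in cDC. In pDC it was 2.32 (SE 0.22, 4.99-fold, adjusted p = 0.00038), and in in vivo CDP 2.12 (SE 0.21, 4.34-fold, adjusted p = 0.000304). cDC lay below pDC by a difference of -0.83 (SE 0.22, 1.77-fold, adjusted p = 0.038), a call lost without cDC replicate 1 or without either pDC array (adjusted p 0.116 to 0.155). CDP exceeded MPP by 0.81 (SE 0.22) without passing (adjusted p = 0.106).

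For Cnpy3 the cDC arrays had 7.19 and 7.28, the pDC arrays 7.34 and 7.60, and the in vivo CDP arrays 8.46 and 8.21. The CDP arrays had 6.40 and 6.28 and the MPP arrays 5.40 and 5.74. The order from high to low was in vivo CDP, pDC, cDC, CDP and MPP, the same as for Ly86, with no overlap between neighbours. The rise over CDP was 0.90 (SE 0.20, 1.86-fold, adjusted p = 0.0132) in cDC, which did not pass without replicate 2 of CDP or of cDC (adjusted p 0.06 and 0.0626). It was 1.13 (SE 0.20, 2.18-fold, adjusted p = 0.00427) in pDC and 2.00 (SE 0.20, 3.99-fold, adjusted p = 0.00029) in in vivo CDP. The 2 dendritic cell types did not separate past the threshold (difference -0.23 for cDC minus pDC, 95% interval -0.70 to 0.25). Hsp90b1, the chaperone that Cnpy3 works with, did separate them, with means of 13.16 in cDC and 14.14 in pDC (difference -0.99, SE 0.19, 1.99-fold lower in cDC, adjusted p = 0.0116). Over CDP it was higher by 1.09 in pDC (adjusted p = 0.00375) and by 0.10 in cDC (adjusted p = 0.701), a pair of values named after they were seen.

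**Figure D2:**
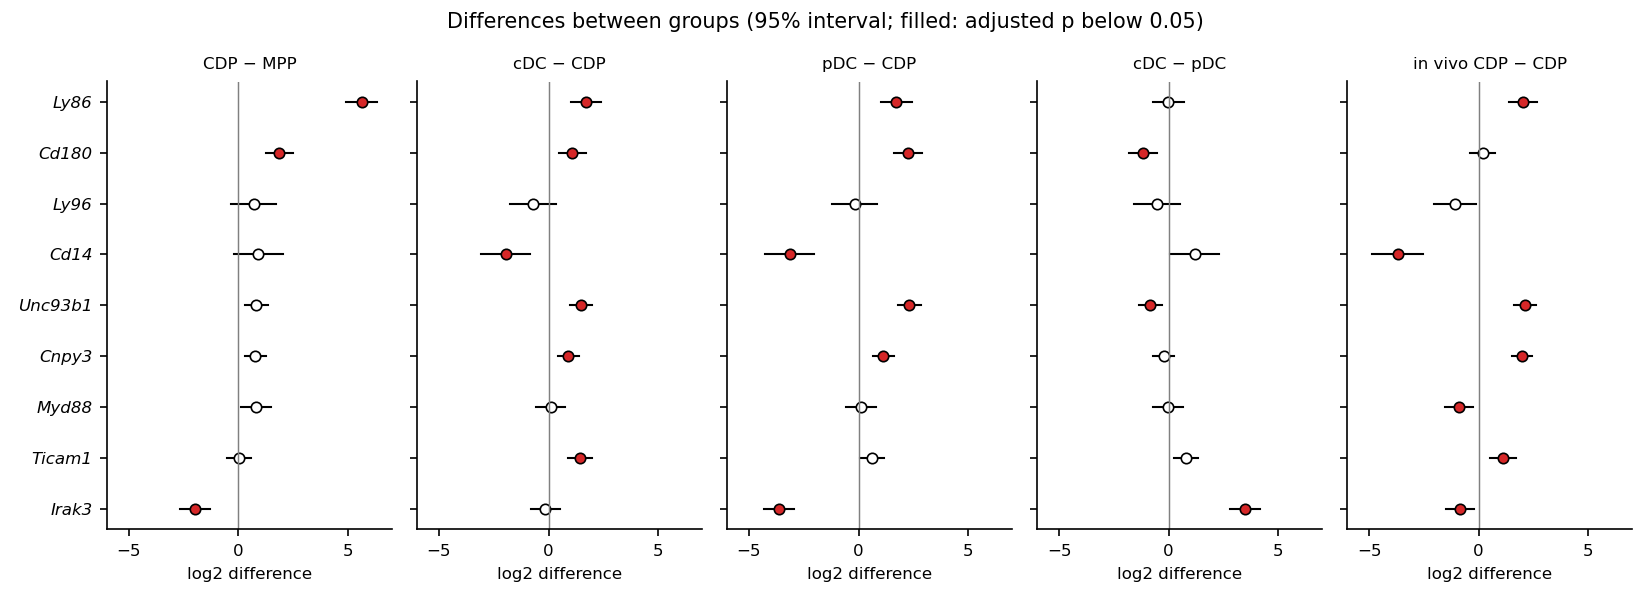
Log2 difference (horizontal axis) of each gene (vertical axis) in 5 comparisons, with 95% intervals from limma; filled points have an adjusted p below 0.05. Unc93b1 and Cnpy3 lie right of 0 against CDP in cDC, pDC and in vivo CDP, Cd14 lies left of 0 in the same 3 panels, and Myd88 lies at 0.10 and 0.12 in cDC and pDC.

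The adaptor Myd88 had the smallest span of group means among the 9 members, 1.01. It was 9.50 and 9.12 in cDC and 9.65 and 9.001 in pDC, against 9.21 on both CDP arrays. The difference from CDP was 0.10 in cDC (95% interval -0.57 to 0.77) and 0.12 in pDC (95% interval -0.56 to 0.79). MPP had 8.20 and 8.61, and CDP exceeded it by 0.80 (SE 0.28, adjusted p = 0.208). In vivo CDP, at 8.43 and 8.19, differed from CDP by -0.90 (SE 0.27, 1.86-fold lower, adjusted p = 0.0291), and this call was lost whichever of the 4 arrays was left out (adjusted p 0.0689 to 0.14).

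Ticam1, the adaptor of Tlr3, was dim in this experiment. It was 5.32 and 5.81 in cDC and 4.76 on both pDC arrays, against 4.31 and 3.95 in CDP and 4.09 and 4.12 in MPP. cDC stood apart: both of its arrays were above every pDC, CDP and MPP array, and the difference from CDP was 1.43 (SE 0.23, adjusted p = 0.00405), at least 1.48-fold. Among these 4 groups Ticam1 exceeded 5 in cDC alone, so it entered the test only through the group in which it is high; with no filter the adjusted p was 0.028. With all values under 5 raised to 5, that difference was 0.57 with an adjusted p of 0.0579. pDC exceeded CDP by 0.63 (SE 0.23, adjusted p = 0.06), and cDC exceeded pDC by 0.80 (SE 0.23, adjusted p = 0.0515). With 1 probe set a gene in the fit, which tests fewer features, the adjusted p was 0.0474 for pDC minus CDP and 0.0372 for cDC minus pDC. Tlr3 itself averaged 10.39 in cDC and 2.25 in CDP, at the floor, at least 41.9-fold higher in cDC. It exceeded 5 in no other group and entered the test only through cDC, so its values are given as a description. In vivo CDP had 5.50 and 4.99 for Ticam1, above CDP by 1.11 (SE 0.25, at least 1.18-fold, adjusted p = 0.00922), a call lost without CDP replicate 2 or in vivo CDP replicate 1 (adjusted p 0.0532 and 0.0604) and at 0.25 (adjusted p = 0.408) with values raised to 5.

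By its brighter probe set, Irak3, the inhibitor of the Myd88 chain, was under 5 in pDC and in no other group. That probe set was 6.01 and 6.23 in cDC, 2.34 and 2.92 in pDC, 6.55 and 5.97 in CDP, and 8.27 and 8.19 in MPP. Both pDC arrays were under every other array. The difference of pDC from CDP was -3.63 (SE 0.28, adjusted p = 0.000211), at least 2.4-fold lower with pDC set to 5. cDC overlapped CDP (difference -0.14, 95% interval -0.82 to 0.53). cDC exceeded pDC by 3.49 (SE 0.28, at least 2.17-fold, adjusted p = 0.000398), the largest difference among the 9 members in that comparison. Both pDC calls passed whichever array was left out. CDP lay below MPP (difference -1.97, SE 0.28, 3.92-fold, adjusted p = 0.0121), but that adjusted p was between 0.0543 and 0.0903 without CDP replicate 2 or either MPP array. In vivo CDP, at 5.28 and 5.54, differed from CDP by -0.85 (SE 0.27, 1.81-fold lower, adjusted p = 0.0361), and this did not pass without CDP replicate 1 or without either in vivo CDP array (adjusted p 0.0789 to 0.179).

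The dimmer Irak3 probe set showed the same directions, and on it in vivo CDP were nearly as close to the floor as pDC. It was 4.15 and 4.24 in cDC, 2.51 and 2.75 in pDC, 2.78 on both in vivo CDP arrays, 5.50 and 3.73 in CDP, and 5.90 and 5.84 in MPP. pDC minus CDP was -1.99 (adjusted p = 0.0186) and in vivo CDP minus CDP was -1.83 (adjusted p = 0.0163). CDP minus MPP was -1.25 (adjusted p = 0.282), cDC minus CDP -0.43 (adjusted p = 0.545) and cDC minus pDC 1.56 (adjusted p = 0.0811), so the 2 probe sets agree in sign but not in every call.

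Markers of other cells and technical values moved with some of these differences. The summed level of 10 measured granulocyte markers ran from 14.27 to 14.88 in CDP, against 16.88 to 17.10 in MPP, and in CDP 9 of 10 were lower and 1 higher than in MPP. Irak3 and Cd14 are also granulocyte genes, and the part of such cells in the MPP values was not tested. Mast cell and basophil markers moved the same way, with 4 of 5 lower in CDP than in MPP and none higher. Their summed level ran from 7.02 to 7.45 in CDP, against 12.23 to 12.29 in MPP, and its part was not tested either. For the granulocyte markers, cDC and pDC had sums of 8.00 to 8.03 and 7.79 to 8.05. The part of granulocytes in the Irak3 difference between them was not tested. In in vivo CDP the granulocyte sum ran from 15.36 to 15.78, and 7 of 10 granulocyte markers were higher and 1 lower than in CDP. For in vivo CDP against CDP, the labelling kit (3′ IVT from 50 ng against one-cycle from 1 µg of RNA), the extraction kit and the cells' origin cannot be told apart. Gapdh was 0.98 and 0.47 higher at its 3′ end on the in vivo CDP arrays, against -0.15 and 0.19 on the CDP arrays. The same measure for Actb did not separate these groups, at 1.39 and 1.09 on in vivo CDP and 1.23 and 2.11 on CDP. For Actb it was 1.91 and 2.04 on MPP, 0.69 and 0.84 on cDC, and 0.84 and 0.94 on pDC. The part of this 3′ excess in the members' differences was not tested.

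The receptors themselves moved apart in the 2 dendritic cell types. Of 12 receptor genes listed, 11 were measured and 7 were bright enough to test in the first experiment. In cDC against CDP, where 40.2% of all probe sets passed, 2 were higher and none lower. They were Tlr3, a sensor of double-stranded RNA that met the brightness filter through cDC only, and Tlr1, a partner of Tlr2 (3.57, SE 0.65, 11.8-fold, adjusted p = 0.00635). In pDC against CDP, 48.2% of all probe sets passed, and 2 receptors were higher. Tlr7, the sensor of single-stranded RNA, rose by 5.25 (SE 0.70, 38-fold, adjusted p = 0.00142), and Tlr12 was at least 1.69-fold higher. Tlr12 averaged 5.76 in pDC, 2.65 in cDC and 2.27 in CDP and met the filter through pDC only, so its values too are a description. The other 4 that passed in pDC were lower, among them Tlr4 and Tlr13 (-3.21, SE 0.73, 9.22-fold, adjusted p = 0.0112). Directly compared, 20.8% of all probe sets passed, and cDC were higher than pDC for 5 of 7 and lower for 2. Tlr3 (7.68) and Tlr12 (-3.11) are in those counts as a description only, since each met the filter through 1 group. Among the others, Tlr1 (6.09) and Tlr13 (4.69) led the genes higher in cDC, and Tlr7 was lower (-4.43). The median difference over the 7, with Tlr3 and Tlr12 included, was 0.82 in cDC minus CDP and -2.46 in pDC minus CDP, beside -0.10 and -0.04 over all probe sets.

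**Figure D3:**
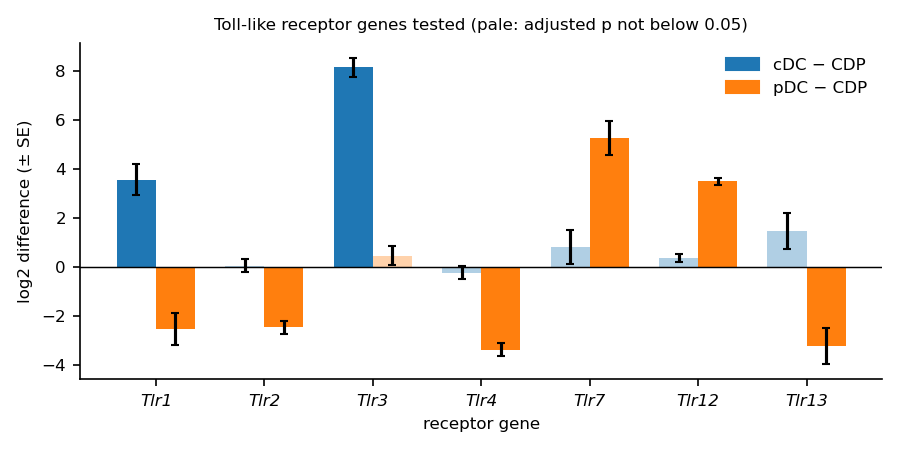
Log2 difference from CDP (vertical axis, bars from 0, whiskers 1 SE) of the 7 receptor genes tested (horizontal axis) in cDC (left bar of each pair) and pDC (right bar); pale bars have an adjusted p not below 0.05. Tlr3 and Tlr1 rise in cDC, Tlr7 and Tlr12 rise in pDC, and Tlr1, Tlr2, Tlr4 and Tlr13 lie below 0 in pDC; Tlr3 and Tlr12 were above 5 in 1 group each.

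Of 29 further signalling and trafficking genes, 25 were measured and 24 tested in the first experiment. In cDC against CDP, 9 were higher and 3 lower, beside 16.6% and 23.7% of all probe sets. Irf7, the interferon-inducing factor downstream of Myd88, averaged 7.14 in cDC, 8.99 in pDC, 3.08 in CDP and 3.18 in MPP. In cDC it was at least 4.4-fold higher than in CDP (difference 4.06, SE 1.19). It met the filter through the dendritic cell groups only, so its values, and its place in the counts, are a description. The same holds for Irak2, counted as higher in both types, with means of 6.44 in cDC, 6.58 in pDC, 4.28 in CDP and 4.39 in MPP. Lbp, which delivers lipopolysaccharide to Cd14, was lower by a difference of -3.93 (SE 0.28, at least 4.06-fold, adjusted p = 0.000283), with Ikbke (-1.64) and the ubiquitin ligase Traf6 (-0.80). In pDC against CDP, 12 were higher and 3 lower, beside 21.9% and 26.4% of all probe sets. Irf7 had the largest rise (5.91, SE 1.19, at least 15.9-fold), again a description. Lbp had the largest fall (-3.93, SE 0.28, at least 4.06-fold lower, adjusted p = 0.000163). Tirap, the bridge between Tlr2 or Tlr4 and Myd88, was among the 3 lower genes in pDC (-2.30, SE 0.29, 4.91-fold, adjusted p = 0.00108; named after its value was seen). The medians were 0.39 in cDC minus CDP and 0.50 in pDC minus CDP, beside -0.10 and -0.04 over all probe sets.

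Against MPP, CDP were higher for 2 of the 7 receptors and lower for none, with a list median of 1.49 beside 0.02 over all probe sets. In that comparison 2.81% of all probe sets passed as higher and 2.11% as lower. Tlr13 rose by 3.86 (SE 0.73, at least 5.73-fold, adjusted p = 0.0334) and Tlr2 by 1.86 (SE 0.27, 3.62-fold, adjusted p = 0.0128). Of the signalling list, 2 of 24 were higher and 2 lower, with a median of -0.02. Irf5, an activator of inflammatory cytokine genes, was higher by 2.02 (adjusted p = 0.00213), and Ikbke (-2.54, adjusted p = 0.0177) and Lbp (-1.74, adjusted p = 0.0198) were lower.

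Both lists also held genes that passed between bone marrow and cultured CDP, where 23.1% of all probe sets passed as higher and 19.7% as lower. Of the 7 receptors, 1 was higher in in vivo CDP than in CDP (Tlr12, under 5 in both at means of 3.03 and 2.27; named after its values were seen) and 4 were lower, among them Tlr13 (-4.95), Tlr4 (-3.60) and Tlr2 (-2.48), and the median was -2.39 beside 0.03 over all probe sets. Of the 24 signalling genes, 11 were higher and 3 lower, with a median of 0.58. Tollip rose by 1.84 (adjusted p = 0.0003) and Irf3 by 1.58 (adjusted p = 0.000361). Irak2 averaged 5.91 in in vivo CDP and 4.28 in CDP, at least 1.88-fold higher in in vivo CDP. It met the filter only through groups in which it is high, so its values, and its place in the count, are a description.

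At each time of the TGF-β1 course, fewer members passed than in any comparison of the first experiment. The share of all probe sets was also smaller at 4, 8 and 12 h. At 24 h that share, 14.2%, was above the 4.92% of CDP against MPP and below the other shares. The 2 experiments were not tested against each other. Against 0 h, no member passed at 4 h (0.278% of all probe sets did), at 8 h (0.677%) or at 12 h (2.94%), although 2, 1 and 1 of the 9 had an unadjusted p below 0.05. At 24 h, 2 of 9 passed, where 14.2% of all probe sets passed; 1 was higher (7.77%) and 1 lower (6.39%). Over all times together, limma's F-test called 1 of 9, Ly96 (adjusted p = 0.0473; 5.74% of all probe sets). The median difference of the members was -0.29, 0.04, -0.16 and 0.06 at 4, 8, 12 and 24 h, beside -0.01 to 0.01 over all probe sets. There was no untreated culture beyond 0 h, so TGF-β1 and the time in culture cannot be told apart. Same-numbered arrays of this series deviated together, so values with the replicate number as a block are given where they change a call.

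**Figure D4:**
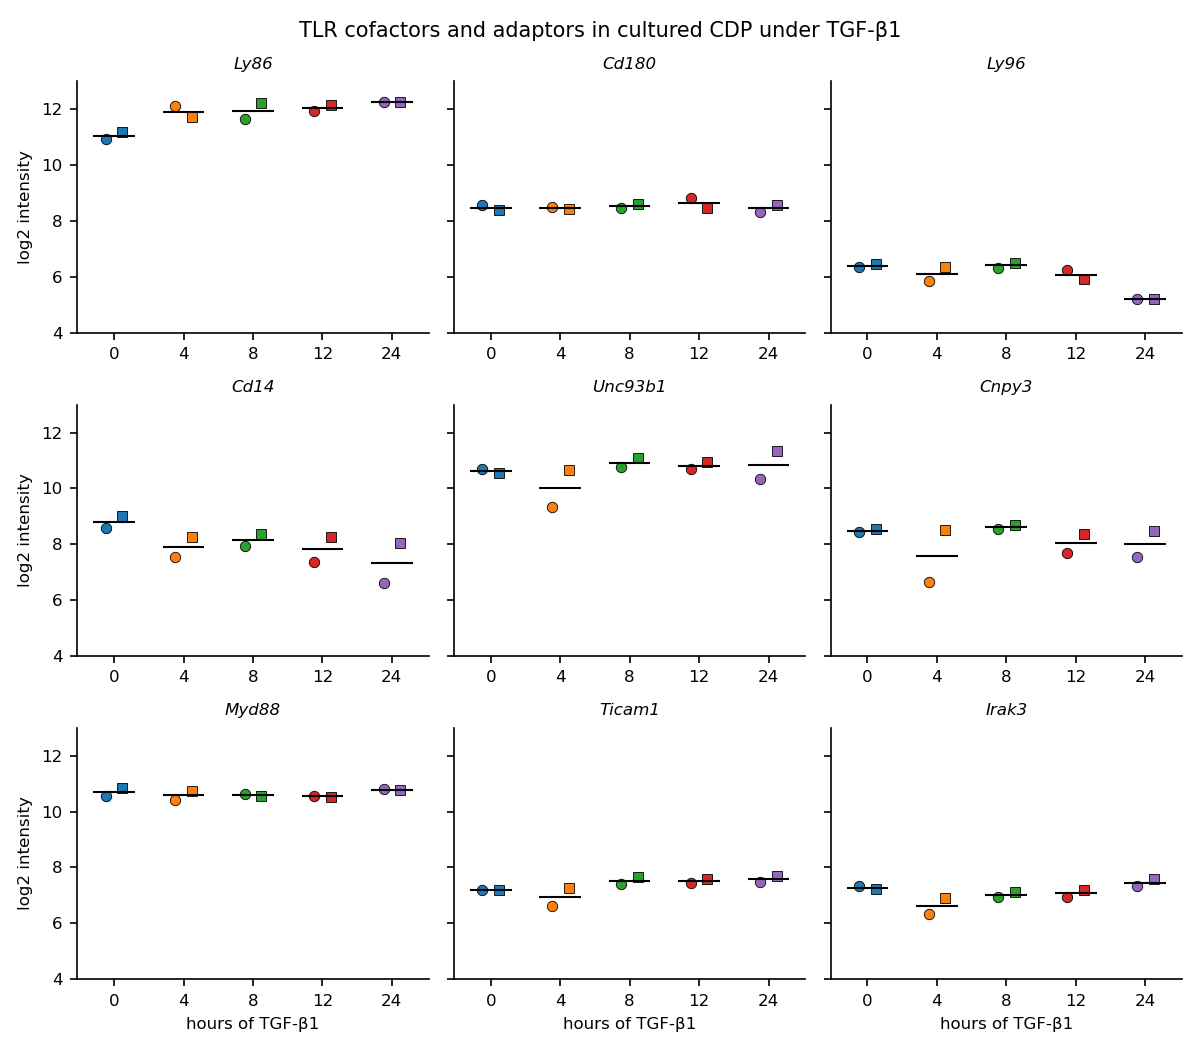
Log2 intensity (vertical axis) of the 9 measured genes at 0, 4, 8, 12 and 24 h of TGF-β1 (horizontal axis); circles are replicate 1, squares replicate 2 and bars the mean of 2 arrays. Ly86 at 24 h (12.28 and 12.25) lies above 0 h (10.94 and 11.18), Ly96 at 24 h (5.22 and 5.19) lies below 0 h (6.36 and 6.45), and Cnpy3 on replicate 1 at 4 h (6.65) stands apart from replicate 2 (8.53).

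Ly86 lay above its untreated level on every treated array and passed at 24 h. It was 10.94 and 11.18 at 0 h, 12.12 and 11.72 at 4 h, 11.65 and 12.24 at 8 h, 11.95 and 12.16 at 12 h, and 12.28 and 12.25 at 24 h. The difference from 0 h was 0.86 at 4 h (adjusted p = 0.414), 0.89 at 8 h (adjusted p = 0.21) and 0.99 at 12 h (adjusted p = 0.0772), where the blocked adjusted p was 0.0428. At 24 h it was 1.20 (SE 0.24, 2.3-fold, adjusted p = 0.0145; 0.00846 with the block). That call did not pass when any 1 of the 4 arrays was left out (adjusted p 0.0538 to 0.118), but it passed without the 3 arrays of low 5′ signal (1.19, adjusted p = 0.0334).

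Cd180 did not follow its partner here. It was 8.59 and 8.38 at 0 h, 8.51 and 8.43 at 4 h, 8.45 and 8.60 at 8 h, 8.81 and 8.48 at 12 h, and 8.33 and 8.58 at 24 h. The arrays of every treated time overlapped those of 0 h, and the difference at 24 h was -0.03 with a 95% interval of -0.45 to 0.40. A rise of Cd180 as large as the 1.20 of Ly86 at 24 h is outside that interval.

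Ly96 fell late. It was 6.36 and 6.45 at 0 h, 5.85 and 6.37 at 4 h, 6.32 and 6.50 at 8 h, 6.24 and 5.92 at 12 h, and 5.22 and 5.19 at 24 h. The arrays of 24 h were under all other arrays of the series. The difference at 24 h was -1.20 (SE 0.21, 2.3-fold lower, adjusted p = 0.00915; 0.00536 with the block), after -0.29, 0.01 and -0.33 at 4, 8 and 12 h. It passed without the 3 arrays of low 5′ signal (-1.22, adjusted p = 0.00782) and not without either 0 h array (adjusted p 0.0623 and 0.0806).

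Cd14 lay below 0 h at all times, with a wide spread between arrays. It was 8.57 and 9.01 at 0 h, 7.54 and 8.26 at 4 h, 7.93 and 8.35 at 8 h, 7.38 and 8.27 at 12 h, and 6.60 and 8.03 at 24 h. All 8 treated arrays were below both untreated ones, and replicate 1 was the lower of the pair at each time. The difference at 24 h was -1.48 (SE 0.51, adjusted p = 0.0991), and with the block it was the same size with an SE of 0.25 and an adjusted p of 0.00522. Without the 3 arrays of low 5′ signal, which include replicate 1 of 24 h, the difference was -0.76 (adjusted p = 0.105). Over all times the blocked F-test gave Cd14 an adjusted p of 0.0411, against 0.48 without the block.

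Lyz2, a macrophage and granulocyte gene, was 8.76 and 8.85 at 24 h, against 12.37 and 11.88 at 0 h, moving with Cd14 and Ly96. Over the monocyte and macrophage list, 8 of 10 genes were above 5 on both arrays at 24 h and likewise at 0 h. The summed level was 13.92 to 14.16 at 24 h, against 14.00 to 14.29 at 0 h, and of 8 genes tested 1 was higher and 2 lower at 24 h. Granulocyte markers had 2 of 10 lower at 24 h, and all 9 tested cDC markers were higher. Of the pDC markers tested, 3 of 7 were higher as well, and of the progenitor markers 3 of 4, with none lower in either list. The part of such changes in cell makeup was not tested.

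Unc93b1 and Cnpy3 had their widest gaps between replicates at 4 and 24 h, and neither passed at any time. Unc93b1 was 10.69 and 10.55 at 0 h, 9.34 and 10.66 at 4 h, 10.77 and 11.09 at 8 h, 10.69 and 10.94 at 12 h, and 10.35 and 11.33 at 24 h. Cnpy3 was 8.43 and 8.54 at 0 h, 6.65 and 8.53 at 4 h, 8.54 and 8.68 at 8 h, 7.69 and 8.38 at 12 h, and 7.55 and 8.48 at 24 h. For both genes, replicate 1 was the lower of its pair at 4, 12 and 24 h, where it had the low 5′ signal, and also at 8 h, where it did not. At 0 h it was the lower for Cnpy3 and the higher for Unc93b1. At 4 h the differences from 0 h were -0.62 (SE 0.45) for Unc93b1 and -0.90 (SE 0.57) for Cnpy3; without those arrays they were 0.04 for both. At 24 h Unc93b1 differed by 0.22 (SE 0.45), and by 0.71 (SE 0.20, adjusted p = 0.0551) without those arrays, while Cnpy3 differed by -0.48 (SE 0.57) and by -0.01 without them.

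Myd88 was level over the series, at 10.58 and 10.86 at 0 h, 10.42 and 10.74 at 4 h, 10.62 and 10.55 at 8 h, 10.57 and 10.54 at 12 h, and 10.80 and 10.77 at 24 h. Its differences from 0 h were between -0.16 and 0.06, and the 95% interval at 24 h was -0.34 to 0.47. Ticam1 was 7.20 on both arrays at 0 h, 6.62 and 7.27 at 4 h, 7.39 and 7.66 at 8 h, 7.44 and 7.60 at 12 h, and 7.47 and 7.71 at 24 h. From 8 h on, every array of Ticam1 was above both untreated ones, but the differences of 0.33, 0.33 and 0.39 (SE 0.23) did not pass (adjusted p 0.341 at 24 h). Irak3 was 7.34 and 7.21 at 0 h, 6.35 and 6.92 at 4 h, 6.93 and 7.11 at 8 h, 6.95 and 7.21 at 12 h, and 7.34 and 7.58 at 24 h. Its largest difference, -0.64 at 4 h (SE 0.22, adjusted p = 0.612), did not pass and was -0.36 without the arrays of low 5′ signal. Its dimmer probe set was under 5 on all 10 arrays and was not tested.

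**Figure D5:**
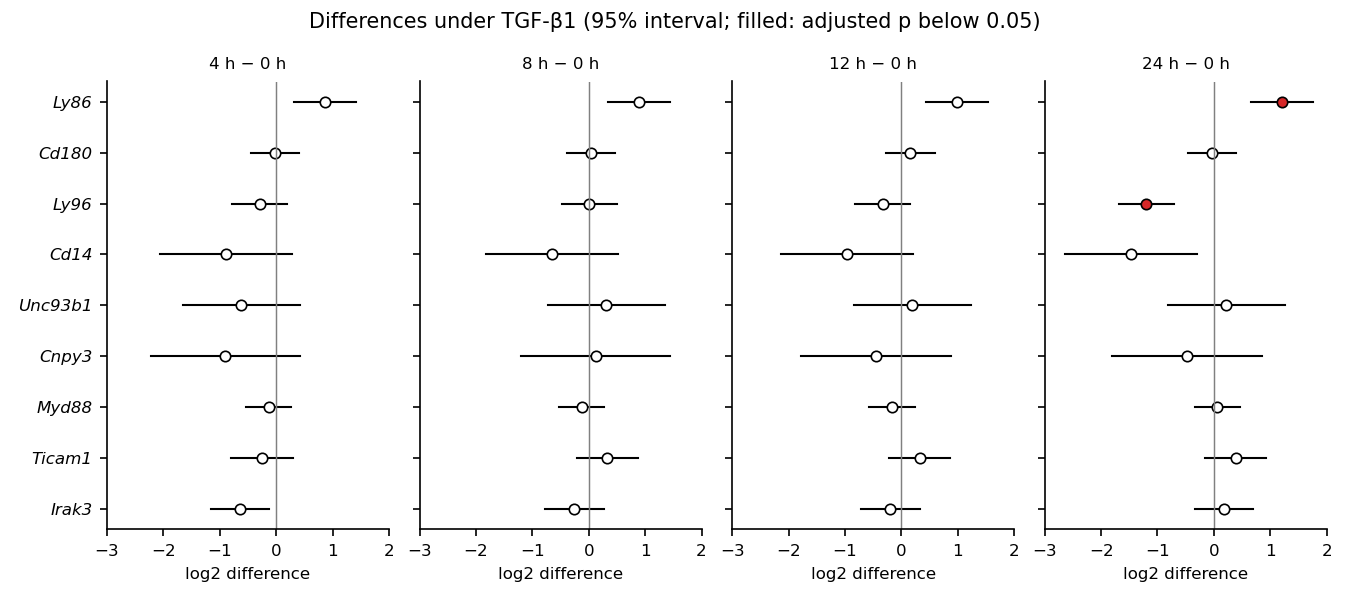
Log2 difference from 0 h (horizontal axis) of each gene (vertical axis) at 4, 8, 12 and 24 h of TGF-β1, with 95% intervals from limma; filled points have an adjusted p below 0.05. Ly86 (1.20) and Ly96 (-1.20) at 24 h are the filled points, and the intervals of Cd14, Unc93b1 and Cnpy3 are the widest.

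Of the other pathway genes, Tlr2 passed at every time and the others that passed did so at 24 h only. At 24 h 14.2% of all probe sets passed, against 0.278%, 0.677% and 2.94% at 4, 8 and 12 h. Of 8 receptors tested, Tlr2 alone was higher at 4 h (1.34, adjusted p = 0.0265), 8 h (1.13, adjusted p = 0.0271) and 12 h (0.96, adjusted p = 0.024). At 24 h Tlr2 was higher by 1.07 (SE 0.16, 2.09-fold, adjusted p = 0.00514) and Tlr1 lower (-1.54, SE 0.24, at least 2.01-fold, adjusted p = 0.00518). The list medians were 0.23, 0.04, -0.23 and -0.21 at 4, 8, 12 and 24 h. Of 25 signalling and trafficking genes, none passed in limma at 4, 8 or 12 h, where 3, 3 and 7 had an unadjusted p below 0.05. At 24 h, 4 were higher, led by Irak2 (1.35, adjusted p = 0.00356), Tirap (1.27, adjusted p = 0.00515) and Slc15a4 (1.11, adjusted p = 0.0271), and 2 were lower, Lbp (-1.91, adjusted p = 0.0244) and Ikbke (-1.08, adjusted p = 0.0248). Their median at 24 h was 0.31, beside -0.01 over all probe sets.

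Of the 9 members, 5 had group means that spanned at least 3 over the first experiment, and the genes most like each were sought among 1654 genes with as wide a span, by Pearson correlation over the 10 arrays. The arrays share groups and a scale, so these are descriptions. Ly86 was closest to Hdac9 (0.98), Ahnak (0.98) and Evl (0.97), and Cd180 to Bcl11a, Slc44a1 and Pde7a (0.98 each). Unc93b1 was closest to Irf8 (0.99), Atp8b2 (0.98) and Trim3 (0.98). Cd14 was closest to Prss16 (0.96), Slc1a4 (0.95) and Clec4e (0.93), and Irak3 to Igsf6 (0.96), Papss2 (0.96) and Marchf8 (0.95).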

How the data were processed

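The authors deposited 1 table of log2 probe set intensities for 20 arrays; GCRMA, a background adjustment and normalization for such arrays, is named in the submitters' processing notes, without a version. Its background step and floor compress differences between dim signals. No scanner files were used. Probe sets were named from a platform annotation of 2016, with symbols updated through gene IDs: 34958 had 1 symbol, 932 several and 9160 none. The 64 array controls were left out of all tests. Where a gene had several probe sets, the one with the highest average across all 20 arrays stood for it.

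Differences were tested two-sided (limma 3.58.1 under R 4.3.3, with its lmFit and eBayes steps) on probe sets that exceeded 5 on 2 or more arrays. The fits held the 8 one-cycle arrays (17501 probe sets), those with in vivo CDP added (18027) and the 10 TGF-β1 arrays (26606). All 9 measured members passed the filter in each. The method was tested on simulated data. A fold against a group with both arrays under 5 was computed against 5 and is written as "at least".

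In the TGF-β1 series, deviations of same-numbered arrays correlated at 0.147 to 0.833 over the 10 pairs of times; the highest values came from the arrays that share a low 5′ signal. In the one-cycle arrays they correlated at 0.0159 to 0.586 and were not taken as paired. Members and gene lists were chosen with earlier results of these data known. Named were all members, at most 3 called genes of the 2 pathway lists for each direction and comparison, and the 3 genes most like each member with a span of at least 3.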

Additional observations from a re-analysis of the deposited data

Results flagged for a closer look

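Of the 9 members, 3 responded differently in the 2 dendritic cell types, as tested by the direct comparison of cDC with pDC. In that comparison 20.8% of all probe sets passed, and 5.24% without the filter on dim probe sets. Without the filter on dim probe sets only Irak3 passed, and the calls of Cd180 and Unc93b1 were lost without 2 and without 3 of the 4 arrays, each left out alone. Cd180 was above CDP by 1.09 in cDC and by 2.26 in pDC, a difference between the types of -1.16 (adjusted p = 0.0228, limma). Irak3 differed from CDP by -0.14 in cDC and by -3.63 in pDC, a difference between the types of 3.49 (adjusted p = 0.000398). Unc93b1 was above CDP by 1.49 in cDC and by 2.32 in pDC, a difference between the types of -0.83 (adjusted p = 0.038).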

How the results depend on the processing

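With 2 arrays a group, calls near the threshold rest on single arrays, and GCRMA values near the floor carry no order. Of the log2 differences under alternatives other than leaving out an array, 582 kept direction and side of the threshold, 13 lost the call, 8 gained one and 9 changed sign. With 1 array left out, 261 kept both, 32 lost the call, 3 gained one and 28 changed sign. The cause of these changes was not tested, except that leaving out an array leaves fewer samples and dropping the filter tests more probe sets.

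Without the filter on dim probe sets, 1 member passed in CDP against MPP (0.988% of all probe sets) and 1 in cDC against pDC (5.24%). With the replicate block, 1 passed at 12 h (7.32% of all probe sets) and 2 in the F-test (13%). The block changed no other count of the TGF-β1 series by over 1.5 times. In the first experiment the numbers were not taken as pairs. There the block turned Ly96 into a call in cDC minus CDP (adjusted p = 0.0431) and in in vivo CDP minus CDP (0.00695). In the latter, a fit of the 4 arrays compared did so too (0.0376). Leaving out 1 array also lowered the share of all probe sets that passed, except at 4 h without replicate 2 of 4 h, where it rose. The member counts that follow are therefore not comparable with those of the full fits. With 1 array left out, the counts ran from 1 to 3 in CDP against MPP, 4 to 5 in cDC against CDP, 6 to 6 in pDC against CDP, 1 to 3 in cDC against pDC, 4 to 5 in in vivo CDP against CDP, 0 to 1 at 4 h, 0 to 0 at 8 and 12 h, and 0 to 2 at 24 h.

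The sign changed, for differences without a call, as follows. Under quantile normalization, Myd88 in cDC minus pDC was 0.019, Cd180 at 4 h 0.0698 and Ly96 at 8 h -0.002. Without the 3 arrays of low 5′ signal, Myd88, Ticam1, Unc93b1 and Cnpy3 at 4 h were 0.025, 0.0723, 0.0416 and 0.0386, and Cd180 was -0.0027 at 12 h and 0.10 at 24 h.

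With 1 array left out, the ranges that cross 0 were -0.15 to 0.21 for Ticam1 in CDP minus MPP. In cDC minus CDP they were -0.0884 to 0.29 for Myd88 and -0.44 to 0.15 for Irak3. In pDC minus CDP they were -0.56 to 0.20 for Ly96 and -0.21 to 0.44 for Myd88. In cDC minus pDC they were -0.16 to 0.13 for Ly86, -1.06 to 0.0157 for Ly96 and -0.34 to 0.31 for Myd88. At 4 h they were -0.12 to 0.0909 for Cd180, -0.30 to 0.025 for Myd88, -0.58 to 0.0723 for Ticam1, -1.28 to 0.0416 for Unc93b1 and -1.84 to 0.0386 for Cnpy3. At 8 h they were -0.061 to 0.15 for Cd180, -0.0829 to 0.10 for Ly96 and -0.27 to 0.0137 for Myd88. At 12 h the range was -0.0027 to 0.33 for Cd180, and at 24 h the ranges were -0.15 to 0.10 for Cd180, -0.0776 to 0.20 for Myd88 and -0.27 to 0.71 for Unc93b1.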
